A study of Mus musculus with 35 samples.

Results

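Histone lysine methyltransferases and demethylases write and remove methyl groups on histone tails, and the transcripts of these enzymes were followed here from nucleus to cytoplasm and through depletion of the mRNA export factor Chtop. Genes were taken by symbol, from the families Kdm, Kmt, Setd, Ehmt, Ezh, Suv39h, Nsd and Dot1l. Of 48 matching symbols in the deposited RPKM table (54393 genes), 39 also had a row among the 9239 genes of the deposited count table, and these 39 are the members tested. All 39 passed the filter on low counts in every fit. The remaining 9 symbols (Kmt2a, Nsd1, Kdm4c, Kdm8, Setd1b, Kdm4d, Kdm5d, Kdm6bos and Kdm4dl) had RPKM values only.

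Poly(A) RNA came from N2a Flp-In rtTA cells, a mouse neuroblastoma line, of which 2 derivatives were used: mEx5, with a doxycycline-inducible FLAG-Chtop cDNA without exon 5, and pEx5, with the cDNA that holds exon 5. Each line received a non-targeting siRNA pool without doxycycline (control), 1 Chtop siRNA product without doxycycline (knockdown), or the same Chtop siRNA with doxycycline (rescue). Medium was changed 24 h after transfection, and cells were harvested at 72 h and parted into a total sample (20% of the cells), nuclei and cytoplasm. This gave 35 libraries: each of the 18 groups of line, condition and fraction had 2 biological replicates except the cytoplasmic pEx5 control, with 1. No group had doxycycline with the control siRNA, so doxycycline and re-expressed Chtop cannot be told apart, and the control came from 2 culture dishes where the other conditions came from 3. In these bulk samples, fewer cells of a type and less RNA per cell cannot be told apart, and with no spike-in named in the labels every value is relative to the typical gene of its fraction.

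Methyltransferases of the SET-domain family and Dot1l each favour particular lysines: H3K4 and H3K36 methylation accompany transcription, while H3K9, H3K27 and H4K20 methylation mark silenced or compacted chromatin. Demethylases of the Kdm families, either flavin-dependent (Kdm1) or built on a JmjC domain, take the same marks off again. Chtop binds RNA and works with the TREX complex, which hands processed mRNA to the nuclear export receptor.

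Promoter windows were read because Ezh2 and Suv39h1, both known from proliferating cells, were among the genes that rose in the nuclei of knockdown cells. A RefSeq promoter window (GRCm38.p6, 250 bases before to 50 after the start) was used for 30 of the 39 genes. Any window of a member on 1 chromosome was left out, while windows of other genes on it were kept. Of these, 3 contained an E2F-type site, written as TTTCCCGC, TTTCGCGC, TTTGCCGC or TTTGGCGC on either strand: 10.0%, beside 5.37% of 7256 genes of the count table and 2.6% of all 27025 genes with a window. Ezh2 and Suv39h1, which prompted the search, are among the 3, so this share is not read as a result about the 39 genes. The 3 matches are shown 5′ to 3′ on the gene's strand, with the site in capitals. The Ezh2 match lies at chr6:47595009-47595038 (minus strand), the Suv39h1 match at chrX:8074407-8074436 (minus strand, for 1 of its RefSeq starts) and the Kmt5c match at chr7:4740011-4740040 (plus strand).
Ezh2: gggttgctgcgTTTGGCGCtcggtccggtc
Suv39h1: ggaaggccggcGCGGCAAAcgtgggggccg
Kmt5c: ggccagaagagGCGGGAAAaagagagcaat
The sites begin 4 bases after the start in Ezh2, and 64 and 105 bases before it in Suv39h1 and Kmt5c. A match describes the letters of a window and not a bound factor. Kmt5c did not pass the test in any fraction of the knockdown without the replicate block described with those results.

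Counts per library summed to 20652832 to 36102129 in total lysate, 11681781 to 28705620 in nuclei and 19478702 to 40105458 in cytoplasm. A member's count in 1 library ranged from 109 (Setd4) to 15841 (Kmt2d). Chtop itself, the targeted gene, went from 125 to 141 CPM (counts scaled to library size and between libraries) in total control libraries to 19.4 to 34.2 CPM in knockdown and 187 to 289 CPM in rescue. Its nuclear level went from 95.5 to 129 CPM in control to 59.6 to 74.1 CPM in knockdown. Of 16 markers of neuroblastoma and neurons, 13 had a mean of at least 1 RPKM in control total lysate, with Nefl, Nefm and Th below it. The 17 markers of other cell types summed to 21.6 to 24.2 RPKM, beside 2808 to 3195 RPKM for the neuroblastoma and neuron markers, and 5 of the 17 were at 0 in every such library. Mitochondrially encoded transcripts took 0.628% to 1.61% of nuclear and 1.91% to 3.31% of cytoplasmic counts. The 2 replicates of a group differed by more than counting noise in each of the 17 pairs, with chi-square per degree of freedom of 14.9 to 64.0.

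Compared per transcript length, in RPKM, the most abundant member in control total lysate was Kdm1a, the flavin-dependent H3K4 demethylase of the CoREST complex, at 112 ± 9.61 RPKM (SD, n = 4). Ezh2, the catalytic subunit of Polycomb repressive complex 2 in dividing cells, followed at 79.5 ± 7.75 RPKM and Ehmt2, which methylates H3K9 as a dimer with Ehmt1, at 70.8 ± 3.30 RPKM. These 2 means differ by about their spread, and the libraries of both overlapped, at 70.1 to 87.3 and 68.1 to 75.4 RPKM. The lowest member was Kdm6a, an X-linked H3K27 demethylase, at 3.63 ± 0.421 RPKM, below Kmt2c at 5.30 ± 0.239 RPKM. Ezh1, the paralog of Ezh2 linked to resting cells, stood at 11.1 ± 1.31 RPKM, below every library of Ezh2.

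Among the genes outside the count table, Kmt2a, the founding member of the MLL family of H3K4 methyltransferases, had 10.4 to 16.4 RPKM (median 13.6) in control nuclei and 3.83 to 4.54 RPKM in control cytoplasm. The 4 nuclear values lay above the 3 cytoplasmic ones. In knockdown nuclei Kmt2a stood at 13.4 to 14.96 RPKM, inside the control range. Setd1b, the paralog of Setd1a, had 1.31 to 1.69 RPKM in control and 1.94 to 2.13 RPKM in knockdown total lysate, with no overlap. Kdm4c, an H3K9 demethylase, had 5.66 to 6.87 RPKM in control and 2.97 to 5.44 RPKM in knockdown total lysate, also with no overlap. Kdm8 stayed between 0.92 and 2.33 RPKM in all libraries, and Nsd1, an H3K36 methyltransferase, between 0.05 and 0.15 RPKM. The Y-linked Kdm5d had 0.20 to 0.36 RPKM in control nuclei and 0.64 to 0.85 RPKM in knockdown nuclei; it has a close X-linked copy, Kdm5c, and how reads were shared between them is not stated. Kdm4d, Kdm4dl and the antisense Kdm6bos were at most 0.28 RPKM in any library. No test was run on these RPKM values.

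Where the transcripts of the 39 genes lie in control cells was measured in 2 ways: as the nuclear to cytoplasmic log2 ratio tested over 7 libraries, and as the nuclear share of each culture, nuclear CPM divided by nuclear plus cytoplasmic CPM. A share of 50% means equal CPM in both fractions and not equal numbers of molecules. The transcripts leaned to the nucleus. Of the 39 genes, 24 (61.5%) were higher in nuclei and 3 (7.69%) higher in cytoplasm. Over the whole table nuclei were higher for 33.8% and cytoplasm for 36.1%, so 69.9% passed (edgeR quasi-likelihood, adjusted p under 0.05 after Benjamini-Hochberg). The median log2 ratio was 0.45 for these genes and -0.03 over all genes. The median share over the 39 genes was 54.4% to 59.1% in the 3 control cultures with both fractions, and the median over all genes was 49.3% to 49.6%.

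**Figure D1:**
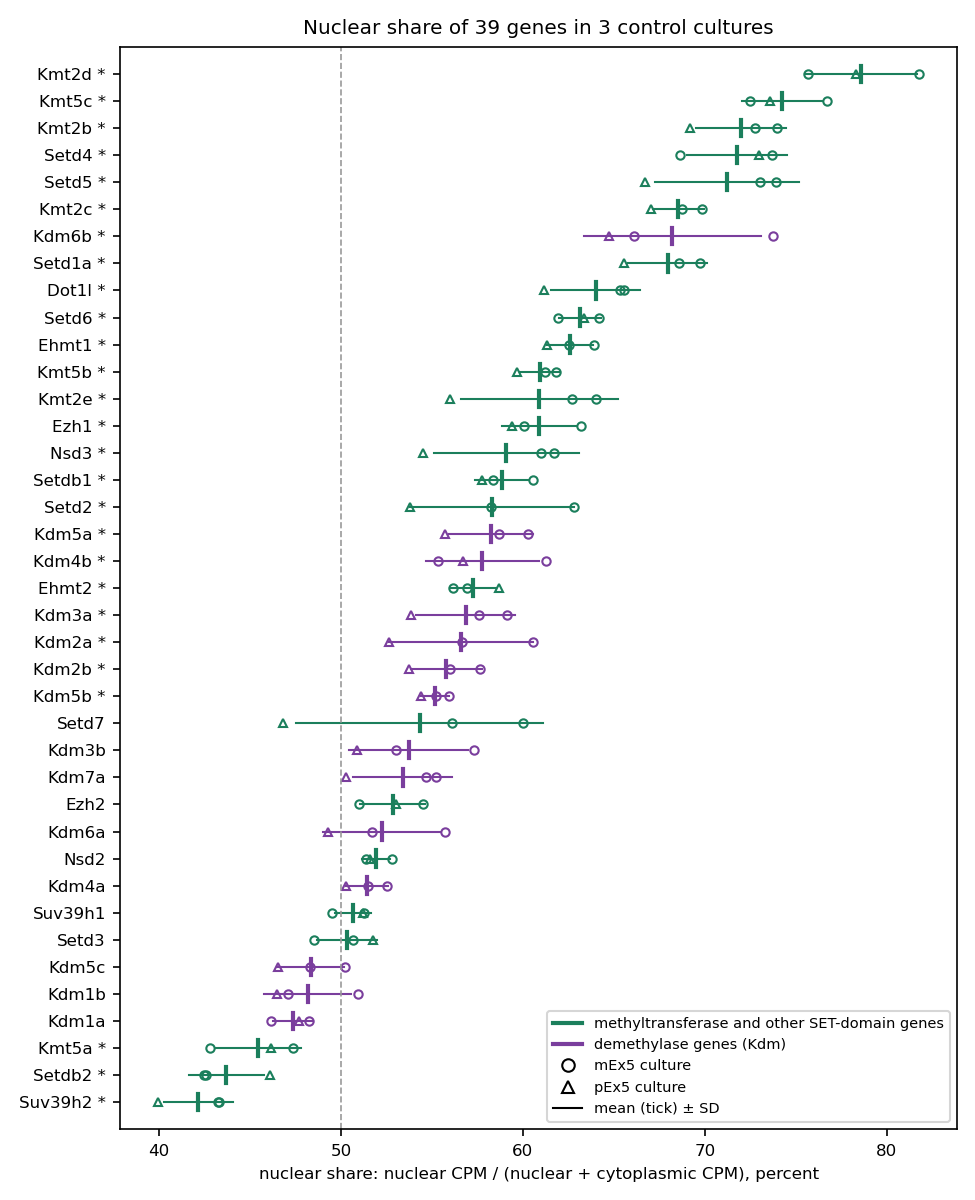
Nuclear share in percent (x axis) for each of the 39 genes (y axis, sorted by mean) in the 3 control cultures with both fractions. Symbols are cultures by line, ticks are means and lines are SD, and a star marks a nuclear to cytoplasmic ratio with an adjusted p under 0.05. Kmt2d stands highest, with cultures from 75.7% to 81.8%, and Suv39h2 lowest, with cultures from 40.0% to 43.3%.

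H3K4 methyltransferases held the highest place, with 4 of 5 higher in nuclei and a median log2 ratio of 1.13. Kmt2d (ENSMUSG00000048154.17, chromosome 15, 98831669 to 98871204), which methylates H3K4 at enhancers, had 391 and 464 CPM in the nuclei of the mEx5 control and 359 and 431 CPM in those of the pEx5 control. Its cytoplasmic level was 87.3 and 149 CPM in mEx5 and 99.5 CPM in pEx5. Every nuclear library thus lay above every cytoplasmic one, and the log2 ratio was 1.92 (edgeR adjusted p = 3.8e-07, SE 0.19). Kmt2b, which acts at promoters of developmental genes, had a log2 ratio of 1.35 (SE 0.14), Kmt2c, the enhancer paralog of Kmt2d, one of 1.13 (SE 0.11), and Setd1a, of the COMPASS complex, one of 1.05 (SE 0.11). Of the exon bases of Setd1a, 51.9% are shared with the readthrough gene Gm49388 on the same strand, so its value is uncertain. Setd7, a monomethyltransferase that also acts on other proteins, was at 0.23 (SE 0.12) and did not pass (edgeR adjusted p = 0.091).

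Genes of the repressive marks were spread over the whole range. Kmt5c, which trimethylates H4K20 in heterochromatin, had a share of 74.2% ± 2.19 (SD, n = 3), and its log2 ratio of 1.62 passed (edgeR adjusted p = 2.2e-07, SE 0.16). Kmt5a, which places the monomethyl mark that Kmt5b and Kmt5c extend, was on the other side, at a share of 45.4% ± 2.36 and a ratio of -0.29 (edgeR adjusted p = 0.0089, SE 0.09). The lowest share was that of Suv39h2, an H3K9 methyltransferase of heterochromatin, at 42.2% ± 1.90. The log2 ratio of Suv39h2 was -0.51 (edgeR adjusted p = 0.00012, SE 0.09), and Setdb2, of the same group, was at -0.37 (SE 0.12, edgeR adjusted p = 0.0098). Suv39h1, the paralog of Suv39h2, had a share of 50.7% ± 1.00. Its log2 ratio was -0.01, with a 95% interval of -0.19 to 0.16. Ezh1 was higher in nuclei (log2 ratio 0.74, SE 0.15), while Ezh2 was at 0.08, with a 95% interval of -0.18 to 0.34. The authors' deposited control ratios differ for some of these genes, with Ezh2 at 0.807, Setdb2 at 0.006 and Ezh1 at 0.979. They are 1.736 for Kmt5c, -0.318 for Kmt5a, -0.791 for Suv39h2 and -0.054 for Suv39h1.

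Of the 14 demethylase genes 7 were higher in nuclei. The lowest of them was Kdm1a, at -0.16 (edgeR adjusted p = 0.057, SE 0.07). DESeq2 gave it -0.15 (DESeq2 adjusted p = 0.039), and the authors' deposited table has it at 0.305. Kdm1b, its paralog, was at -0.05 (SE 0.10, edgeR adjusted p = 0.67). Kdm6b, an inducible H3K27 demethylase, stood highest of them with a log2 ratio of 1.10 (SE 0.15). The median log2 ratio of the demethylases was 0.32, beside 0.58 for the 25 methyltransferase and other SET-domain genes, of which 17 were higher in nuclei and 3 in cytoplasm. Setd4 (log2 ratio 1.43, SE 0.15) and Setd5 (1.36, SE 0.12), SET-domain genes of unsettled substrate, were among the 5 highest. In the authors' deposited table they are at 1.894 and 0.858, and Setd2, at 1.7, stands above Setd5. Dot1l, the H3K79 methyltransferase, was at 0.87 (SE 0.15).

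The 39 genes are long: their median mRNA length was 5953 nt against 3027 nt over all genes, with 22 against 9 exons. Their median GC content, 49.7%, was close to the 50.3% of all genes. Across the 39 genes the log2 ratio had a Spearman correlation of 0.30 with length, 0.51 with GC content and 0.35 with exon number. Over all 9239 genes the same correlations were 0.39, 0.15 and 0.34. Genes are not independent replicates, and these values are descriptions. With each library's trend on length and GC content taken out, 16 of the 39 were higher in nuclei and 8 lower, beside 28.6% and 43.3% of all genes. The median log2 ratio was then 0.03 for these genes and -0.13 over all genes. Members with a ratio above 0 went from 32 to 21, beside 4459 and 3794 of the 9239 genes. Of the genes called before, Ehmt2, Kdm2a, Kdm4b, Kdm5a and Kdm5b turned to a negative sign without passing the test, and Kdm2b (0.00), Nsd3 (0.07) and Setd2 (0.19) lost their call. The 5 highest genes stayed higher in nuclei. The authors' deposited table marks 34 of the 39 genes (87.2%) as overlapping Chtop iCLIP, beside 48.5% of all genes. The 34 marked genes had a median log2 ratio of 0.49 and the other 5 one of 0.11, beside 0.24 and -0.32 for all marked and unmarked genes.

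In the fits without the replicate block, knockdown of Chtop changed 18 of the 39 transcripts in at least 1 fraction. Of these, 14 went upward and 4 downward, and none in both directions. More members fell with the block, 7 in total lysate and 6 in nuclei, so the count of 4 holds only without it. Of the 9236 genes tested in each fraction, 60.0% were called in at least 1, beside 46.2% of the members. At least 1 upward call was held by 30.8% of these genes and 35.9% of the members, and at least 1 downward call by 29.8% and 10.3%. Ezh2, Ehmt2, Kmt2b, Setd1a, Kmt5b and Kdm3a rose in total lysate, nuclei and cytoplasm, and Kdm7a fell in all of them. The value of Setd1a is uncertain, since it shares exon bases with Gm49388. Over the 9236 genes 7.55% rose in each fraction and 10.3% fell in each. In total lysate 9 genes rose and 3 fell, where 21.4% and 22.6% of all genes did (43.9% in all). In nuclei 11 rose and 2 fell, against 15.4% and 16% of all genes (31.4% in all), and in cytoplasm 10 rose and 2 fell, against 19.8% and 20.9% (40.7% in all). The share that rose was thus near that of all genes in total lysate (23.1%) and above it in nuclei (28.2%). In cytoplasm it was 25.6%, an excess not kept with the length and GC trend taken out. The share that fell was below that of all genes in each fraction, at 7.69%, 5.13% and 5.13%. The median log2 fold change of the 39 genes was 0.08, 0.07 and 0.10, beside 0.01, 0.01 and 0.00 over all genes. A call is an edgeR adjusted p under 0.05 over all genes of the fit, without the replicate block unless the block is named.

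**Figure D2:**
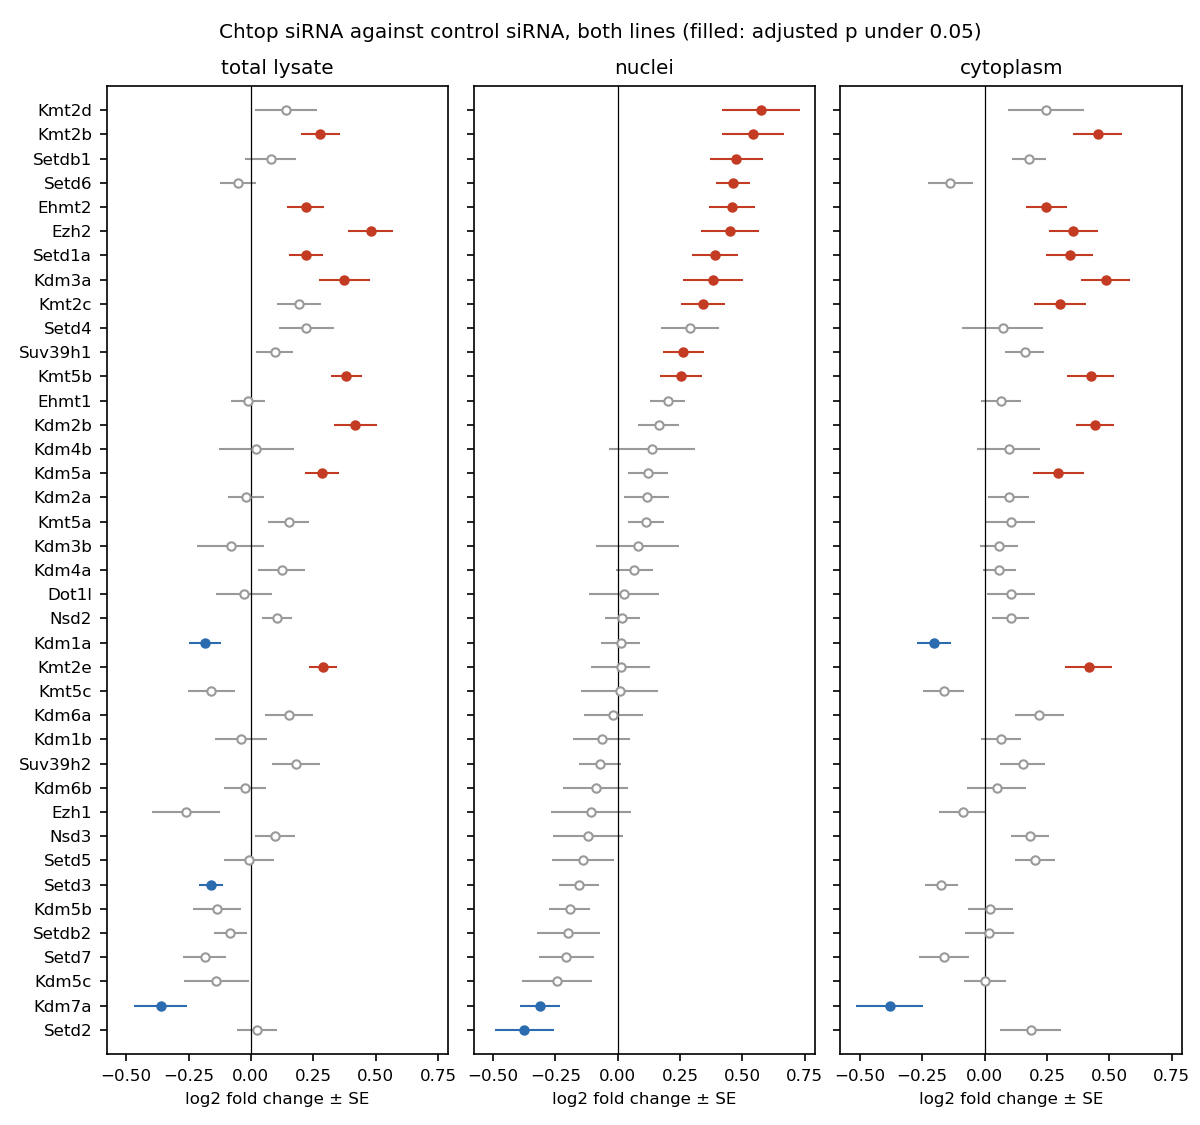
Log2 fold change of Chtop siRNA against control siRNA over both lines (x axis, with SE as bars) for the 39 genes (y axis, sorted by the nuclear value) in 3 fractions. Filled points have an adjusted p under 0.05, red for higher and blue for lower. Kmt2d stands highest in nuclei at 0.57 and Setd2 lowest at -0.38, while in total lysate these are open points at 0.14 and 0.03.

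These counts depend on single libraries and on the pairing of replicates. Without the mEx5 control library of replicate 1, 6 members were called in total lysate, 7 in nuclei and 7 in cytoplasm, where 35.4%, 23.8% and 34.7% of all genes were. Without the pEx5 control library of replicate 2, 7 were called in total lysate, where 33.3% of all genes were. Without the pEx5 knockdown library of replicate 1, 7 were called in nuclei (21.7% of all genes), and 8 without the mEx5 knockdown library of replicate 2 (26.3% of all genes). Where the replicate number entered the fit as a block, 13 members rose and 7 fell in total lysate, where 31.4% of all genes rose and 31.4% fell. In nuclei 14 rose and 6 fell with that block, where 27.8% and 27.6% of all genes did. The members that passed with the block alone in total lysate were Ezh1 (-0.27), Setd7 (-0.18), Kmt5c (-0.16), Kdm5c (-0.15), Kmt2d (0.15), Kmt5a (0.16), Suv39h2 (0.18) and Kmt2c (0.19), as log2 fold changes. In nuclei they were Kdm5c (-0.24), Setd7 (-0.20), Kdm5b (-0.19), Setd3 (-0.16), Kdm2b (0.16), Ehmt1 (0.20) and Setd4 (0.29). Scaling by library totals alone gave 8 higher and 1 lower in total lysate, beside 21.6% and 19.4% of all genes. Ehmt2 (0.23), Setd3 (-0.15) and Kdm1a (-0.17) then lost their call in total lysate, Suv39h1 (0.23) and Kmt5b (0.22) in nuclei, and Kdm7a (-0.33) and Kdm1a (-0.15) in cytoplasm. In cytoplasm it gave 15 higher and 0 lower, beside 24.6% and 16.7% of all genes. With the length and GC trend taken out, 9 rose and 5 fell in cytoplasm, where 25.5% and 24.1% of all genes did. The share of members that rose there was then not above that of all genes.

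Among H3K4 methyltransferases, 4 of 5 rose in nuclei, 3 in cytoplasm and 2 in total lysate, and none fell without the replicate block. Each of these counts includes Setd1a, whose value is uncertain because it shares exon bases with Gm49388. Of all genes 15.4%, 19.8% and 21.4% rose in these fractions. Setd7, of the same group, was at -0.206, -0.163 and -0.185 there, and fell in nuclei and total lysate with the block. Kmt2b (ENSMUSG00000006307.16, chromosome 7, 30568858 to 30588726) had 229 and 261 CPM in mEx5 and 221 and 248 CPM in pEx5 control nuclei, and 344 and 365 CPM in mEx5 and 338 and 370 CPM in pEx5 knockdown nuclei. All 4 knockdown nuclei were above all 4 controls, with a log2 fold change of 0.54 (SE 0.13, edgeR adjusted p = 0.0088). In cytoplasm the control libraries had 80.6, 97.8 and 98.4 CPM and the knockdown libraries 122 to 133 CPM, again apart, with a log2 fold change of 0.45 (SE 0.10, edgeR adjusted p = 0.0036). In total lysate Kmt2b rose by a log2 fold change of 0.28 (SE 0.08, edgeR adjusted p = 0.017), a call lost without the mEx5 control of replicate 1 or the pEx5 control of replicate 2.

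Kmt2d had 359 to 464 CPM (median 411) in control nuclei and 528 to 692 CPM (median 634) in knockdown nuclei. The groups did not overlap, and the log2 fold change was 0.57 (SE 0.16, edgeR adjusted p = 0.019). Leaving out the mEx5 or pEx5 control of replicate 1, or the mEx5 or pEx5 knockdown of replicate 2, ended this call, with edgeR adjusted p of at most 0.07. In cytoplasm its libraries overlapped, at 87.3 to 149 CPM in control and 110 to 149 CPM in knockdown. The log2 fold change there was 0.25, with a 95% interval of -0.09 to 0.59. Setd1a rose by 0.39 (SE 0.09) in nuclei and 0.34 (SE 0.09) in cytoplasm, and Kmt2c by 0.34 (SE 0.09) and 0.30 (SE 0.10), all as log2 fold changes. The Kmt2c call in nuclei was lost without the mEx5 control or the pEx5 knockdown of replicate 1. Its cytoplasmic call was lost in 6 of the 10 fits that leave out 1 library and with the length and GC trend taken out (0.19, edgeR adjusted p = 0.07). The total lysate call of Setd1a was lost in 7 of 12 such fits.

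**Figure D3:**
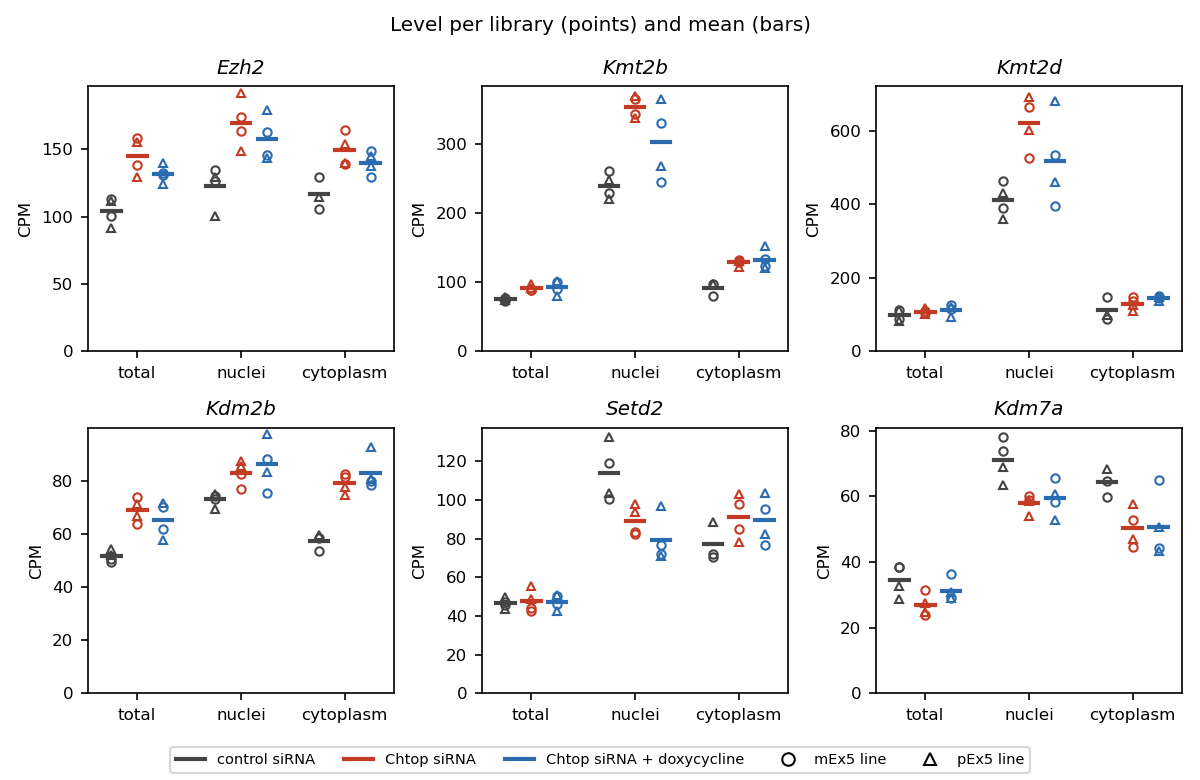
CPM (y axis, from 0) of 6 genes in total lysate, nuclei and cytoplasm under 3 conditions; points are libraries by line and bars are means. Ezh2 knockdown libraries lie above controls in each fraction. Among the nuclei, the means of Kmt2b and Kmt2d are highest in knockdown. Setd2 knockdown nuclei lie below controls, at 82.6 to 97.9 against 100.4 to 133 CPM. Levels are not compared between total lysate and the fractions.

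Of the H3K27 methyltransferases Ezh2 rose and Ezh1 did not pass the test. Ezh2 (ENSMUSG00000029687.16, chromosome 6, 47530139 to 47595341), whose promoter site is printed above, had 91.4 to 113 CPM (median 106) in control and 129 to 159 CPM (median 147) in knockdown total lysate. The 4 knockdown libraries lay above the 4 controls in total lysate and nuclei, and above the 3 controls in cytoplasm. Its log2 fold change was 0.48 (SE 0.09, edgeR adjusted p = 0.0023) in total lysate, 0.45 (SE 0.12, edgeR adjusted p = 0.016) in nuclei and 0.35 (SE 0.10, edgeR adjusted p = 0.013) in cytoplasm. The nuclear call was lost without the pEx5 knockdown of replicate 1, the mEx5 control of replicate 2 or the pEx5 control of replicate 2. Ezh1 was at -0.26 in total lysate, with a 95% interval of -0.56 to 0.04. With the replicate block it fell there by a log2 fold change of -0.27 (SE 0.07, edgeR adjusted p = 0.0032).

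Of 6 H3K9 methyltransferases 3 rose in nuclei and 1 in each of the other fractions. Setdb1 (ENSMUSG00000015697.14, chromosome 3, 95323525 to 95357202), which silences retroelements with Trim28, had 109 to 142 CPM (median 117) in control nuclei and 153 to 186 CPM (median 172) in knockdown nuclei. The groups were apart, and the log2 fold change was 0.48 (SE 0.11, edgeR adjusted p = 0.0079). In total lysate, by contrast, Setdb1 libraries overlapped, and the log2 fold change was 0.08, with a 95% interval of -0.15 to 0.30. Ehmt2 rose by a log2 fold change of 0.46 (SE 0.09, edgeR adjusted p = 0.0050) in nuclei, 0.25 (SE 0.08, edgeR adjusted p = 0.033) in cytoplasm and 0.22 (SE 0.08, edgeR adjusted p = 0.038) in total lysate. The total lysate call of Ehmt2 was lost in 6 of the 12 fits that leave out 1 library, and its cytoplasmic call in 4 of 10. Suv39h1 rose in nuclei by 0.26 (SE 0.08, edgeR adjusted p = 0.034), a call lost in 6 of 12 such fits. Antisense Gm14820 shares 14.6% of the Suv39h1 exon bases, and the sources used here do not say whether counting used strand.

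The H3K36 methyltransferase Setd2 (ENSMUSG00000044791.16, chromosome 9, 110532597 to 110618633), which trimethylates H3K36 along transcribed genes, fell in nuclei. It had 100.4 and 119 CPM in mEx5 and 104 and 133 CPM in pEx5 control nuclei, and 82.6 and 83.4 CPM in mEx5 and 93.7 and 97.9 CPM in pEx5 knockdown nuclei. The groups did not overlap, though the highest knockdown and lowest control libraries were close. The log2 fold change was -0.38 (SE 0.12, edgeR adjusted p = 0.035), and 7 of the 12 fits that leave out 1 library lost the call. In total lysate Setd2 was at 0.03, with a 95% interval of -0.15 to 0.20, and in cytoplasm at 0.18, with one of -0.09 to 0.46. Nsd2 and Nsd3, which dimethylate H3K36, did not pass in any fraction, with log2 fold changes of -0.12 to 0.18. Dot1l was at -0.03 in total lysate, 0.03 in nuclei and 0.11 in cytoplasm, none of them called.

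Kmt5b, which turns the H4K20 monomethyl mark into higher states, rose in each fraction: by 0.38 (SE 0.06, edgeR adjusted p = 0.0011) in total lysate, 0.25 (SE 0.08, edgeR adjusted p = 0.042) in nuclei and 0.43 (SE 0.09, edgeR adjusted p = 0.0040) in cytoplasm, as log2 fold changes. Its total lysate level was 23.5 to 26.1 CPM in control and 31.7 to 34.7 CPM in knockdown, with no overlap. The nuclear call was lost in 9 of the 12 fits that leave out 1 library. Kmt5a and Kmt5c did not pass in any fraction without the block, with log2 fold changes of 0.10 to 0.15 and of -0.16 to 0.01. Kmt2e, a relative of the MLL family without clear methyltransferase activity, rose by 0.29 (SE 0.06, edgeR adjusted p = 0.0027) in total lysate and 0.42 (SE 0.09, edgeR adjusted p = 0.0046) in cytoplasm. In nuclei it was at 0.01, with a 95% interval of -0.26 to 0.28. Setd3, which methylates actin, fell by -0.16 (SE 0.05, edgeR adjusted p = 0.022) in total lysate, a call lost in 6 of 12 fits that leave out 1 library.

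Of the 14 demethylase genes 3 rose and 2 fell in total lysate and in cytoplasm, and 1 rose and 1 fell in nuclei. Kdm2b (ENSMUSG00000029475.17, chromosome 5, 122870665 to 122989823), an H3K36 demethylase that brings a Polycomb complex to CpG islands, had 49.6 to 54.2 CPM (median 51.2) in control and 63.6 to 73.9 CPM (median 69.0) in knockdown total lysate. The groups were apart in every fraction. The log2 fold change was 0.42 (SE 0.09, edgeR adjusted p = 0.0034) in total lysate and 0.44 (SE 0.08, edgeR adjusted p = 0.00098) in cytoplasm. In nuclei it was 0.16 (SE 0.08, edgeR adjusted p = 0.16), and 0.16 (SE 0.06, edgeR adjusted p = 0.029) with the replicate block.

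Kdm3a, an H3K9 demethylase induced by low oxygen, rose by 0.37 (SE 0.10), 0.38 (SE 0.12) and 0.48 (SE 0.10) in total lysate, nuclei and cytoplasm, as log2 fold changes. Its nuclear call was lost in 4 of 12 fits that leave out 1 library, and its total lysate call without the mEx5 control of replicate 1. Kdm5a, an H3K4 demethylase that binds the retinoblastoma protein, rose by 0.28 (SE 0.07) in total lysate and 0.30 (SE 0.10) in cytoplasm, the latter lost in 8 of 10 fits that leave out 1 library. Kdm7a (ENSMUSG00000042599.8, chromosome 6, 39136623 to 39206789), a demethylase of H3K9 and H3K27, had 63.5 to 78.1 CPM (median 71.3) in control and 54.2 to 60.2 CPM (median 58.7) in knockdown nuclei, with no overlap. Its log2 fold change was -0.36 (SE 0.11, edgeR adjusted p = 0.019) in total lysate, -0.31 (SE 0.08, edgeR adjusted p = 0.015) in nuclei and -0.38 (SE 0.14, edgeR adjusted p = 0.042) in cytoplasm. Leaving out 1 library ended the call in 5 of 12, 2 of 12 and 6 of 10 fits.

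Kdm1a (ENSMUSG00000036940.15, chromosome 4, 136550540 to 136602723) had 271, 273 and 275 CPM in the control cytoplasm and 226 to 247 CPM in the knockdown cytoplasm, with no overlap. Its log2 fold change was -0.20 (SE 0.07, edgeR adjusted p = 0.031) there and -0.18 (SE 0.07, edgeR adjusted p = 0.046) in total lysate. These calls were lost in 5 of 10 and 9 of 12 fits that leave out 1 library. In nuclei Kdm1a was at 0.01, with a 95% interval of -0.16 to 0.18. The other H3K4 demethylases Kdm1b, Kdm5b and Kdm5c, the H3K9 and H3K36 demethylases Kdm4a and Kdm4b, and the H3K27 demethylases Kdm6a and Kdm6b did not pass in any fraction without the block, with log2 fold changes of -0.24 to 0.22.

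Whether the knockdown moved transcripts between fractions was tested as the change of the nuclear to cytoplasmic log2 ratio. Of the 39 genes 1 rose and 0 fell in edgeR, where 3.83% and 1.31% of all genes did (5.14% in all), so the count is near the background. At an unadjusted p under 0.05 there were 6, and DESeq2 called 1, where it called 8.47% of all genes. The gene called was Setd6 (ENSMUSG00000031671.11, chromosome 8, 95715881 to 95719010), whose methylation targets include proteins other than histones. Its nuclear share was 61.9% and 64.2% in the mEx5 and 63.4% in the pEx5 control cultures. In knockdown cultures it was 73.0% and 73.5% in mEx5 and 71.4% and 72.6% in pEx5. The 4 knockdown cultures were above the 3 controls, and the change of the log2 ratio was 0.61 (SE 0.10, edgeR adjusted p = 0.0035). It was called in each of the 22 fits that leave out 1 library and in each of the 9 other settings. By line the change was 0.68 (SE 0.14) in mEx5 and 0.54 (SE 0.15) in pEx5, and the authors' deposited table gives a difference of 0.52.

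Setd6 nuclei went from 45.5 to 55.6 CPM (median 49.7) in control to 67.3 to 73.4 CPM (median 69.4) in knockdown, apart from each other, with a log2 fold change of 0.46 (SE 0.07, edgeR adjusted p = 0.00098). Its cytoplasmic log2 fold change was -0.14, with a 95% interval of -0.33 to 0.06, and its total one -0.05, with one of -0.21 to 0.11. Setd6 has a short gene of 3130 bases with 7 exons, and no exon base is shared with another gene of GENCODE M21.

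**Figure D4:**
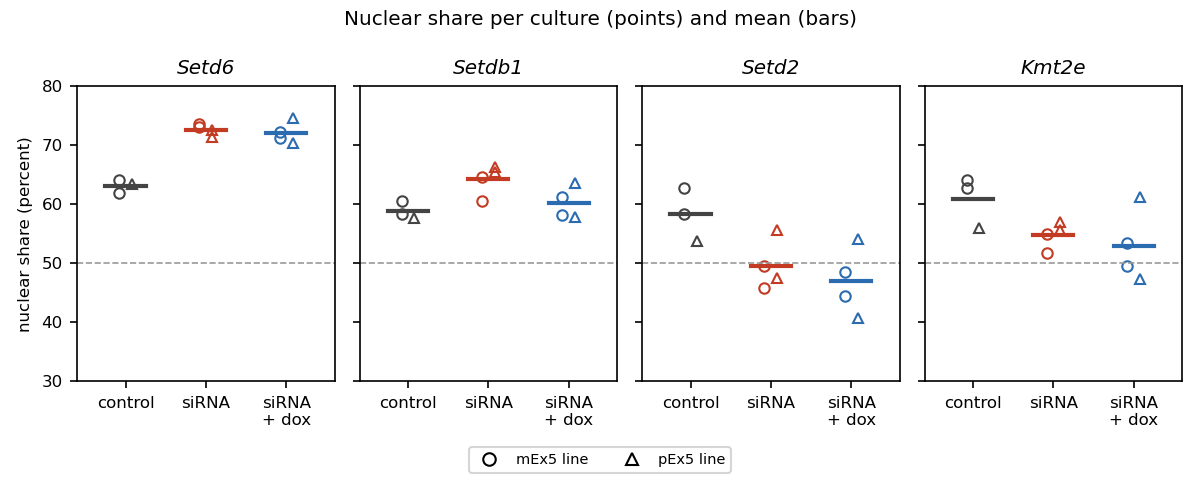
Nuclear share in percent (y axis, from 30 to 80) of 4 genes under control siRNA, Chtop siRNA, and Chtop siRNA with doxycycline; points are cultures by line and bars are means. Setd6 knockdown cultures (71.4% to 73.5%) lie above its controls (61.9% to 64.2%), and the rescue cultures (70.3% to 74.6%) overlap the knockdown.

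The lowest change of the ratio was that of Setd2, at -0.55 (SE 0.18, edgeR adjusted p = 0.099). Its nuclear share was 58.3% and 62.8% in mEx5 and 53.8% in pEx5 control cultures, and 45.8% and 49.5% in mEx5 and 47.6% and 55.6% in pEx5 knockdown cultures. The knockdown cultures were lower in mEx5 and overlapped the control over both lines. Setd2 passed with library totals alone (-0.65, SE 0.18, edgeR adjusted p = 0.046) and with the length and GC trend taken out (-0.46, SE 0.14, edgeR adjusted p = 0.038). Kmt2e was at -0.395 (SE 0.16, edgeR adjusted p = 0.18), with nuclear shares of 56.0% to 64.0% in control and 51.8% to 56.9% in knockdown cultures, which overlapped. Setdb1 and Kmt2d were at 0.31 (SE 0.13) and 0.34 (SE 0.24) and passed with the trend taken out, at edgeR adjusted p = 0.027 and 0.0085. Library totals alone moved the median of all genes from 0.01 to -0.09 in this comparison, and 1 of the 39 then rose and 1 fell, beside 2.23% and 4.45% of all genes.

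Re-expression of Chtop under doxycycline was compared with the knockdown. These comparisons share the knockdown libraries with those above, so values are given side by side. With edgeR, 0 of the 39 genes passed in total lysate, nuclei, cytoplasm or the nuclear to cytoplasmic ratio, and 0 with DESeq2. At an unadjusted p under 0.05, edgeR had 2, 4, 2 and 1 genes. Over all genes, edgeR called 0.0217%, 0.0108%, 0.0433% and 0.0216%, and DESeq2 0.238%, 0.671%, 0.227% and 0.0433%. Kmt2b had 245 and 331 CPM in mEx5 and 269 and 366 CPM in pEx5 rescue nuclei, spread between its control and knockdown libraries. Its log2 fold change was 0.54 (SE 0.13) in the knockdown and -0.23 (SE 0.12, edgeR adjusted p = 0.64) in the rescue. For Kmt2d the values were 0.57 (SE 0.16) and -0.27 (SE 0.16), for Setdb1 0.48 (SE 0.11) and -0.28 (SE 0.11), and for Setd6 0.46 (SE 0.07) and -0.16 (SE 0.07). Setd2 and Kdm7a, the members that fell in knockdown nuclei, were at -0.38 (SE 0.12) and -0.31 (SE 0.08) there, and at -0.17 (SE 0.12) and 0.03 (SE 0.08) in the rescue. Deviations of the shared knockdown libraries enter the 2 values of a gene with opposite signs, so opposite signs are not read as a return to control.

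With the replicate block, Setd7 (-0.31), Kmt2d (-0.28), Setdb1 (-0.28) and Kmt2b (-0.24) fell in rescue nuclei, at edgeR adjusted p of 0.015, 0.017, 0.0089 and 0.036, where 4.07% of all genes fell. With the same block Setd5 rose in total lysate (0.24, SE 0.06, edgeR adjusted p = 0.038), where 0.964% of all genes did. Without the pEx5 knockdown library of replicate 2, 3 members passed in the cytoplasm, where 14.1% of all genes did. The highest rescue change of the nuclear to cytoplasmic ratio was that of Suv39h2 (0.25, SE 0.12) and the lowest that of Kmt2d (-0.43, SE 0.23), neither called, at edgeR adjusted p = 1.0 each.

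The 2 lines were compared for their knockdown effect, and the exon 5 isoforms for their rescue effect, in each fraction. No member passed with edgeR or DESeq2 in any of these 6 tests, where edgeR called 0.0% of all genes in each and DESeq2 at most 0.0758%. At an unadjusted p under 0.05, edgeR had 1 member for the lines in total lysate, 1 in nuclei and 0 in cytoplasm, and 0 in each fraction for the isoforms. The knockdown effect in pEx5 minus that in mEx5 had a median log2 difference of 0.13 over the 39 genes in nuclei (above 0 for 34), beside -0.01 over all genes. In total lysate that median was 0.05 (above 0 for 28) and in cytoplasm -0.07 (above 0 for 10), beside 0.00 and 0.02 over all genes. For the rescue effect, again pEx5 minus mEx5, the medians were -0.15, 0.03 and 0.08 in total lysate, nuclei and cytoplasm (above 0 for 11, 22 and 27), beside 0.00 over all genes in each. Genes share the libraries, so these medians are descriptions. Each of the 12, 13 and 12 knockdown calls in total lysate, nuclei and cytoplasm had the same sign in both lines. A call rests on the mean of the 2 lines, so a shared sign is favoured in advance and is not read as replication. For Ezh2 in total lysate the log2 fold change was 0.47 (SE 0.13) in mEx5 and 0.49 (SE 0.13) in pEx5, and for Kmt2d in nuclei it was 0.46 (SE 0.22) and 0.69 (SE 0.22).

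Partner subunits and related enzymes outside the name rule were followed as a list of 60 genes, of which 55 were in the count table. In knockdown total lysate 20 (36.4%) rose and 7 (12.7%) fell, beside 21.4% and 22.6% of all genes, with a median log2 fold change of 0.13 beside 0.01. In nuclei 11 (20%) rose and 6 (10.9%) fell, beside 15.4% and 16%, and in cytoplasm 18 (32.7%) rose and 7 (12.7%) fell, beside 19.8% and 20.9%. Rcor2, a CoREST subunit that partners Kdm1a, rose by 0.60 (SE 0.08, edgeR adjusted p = 0.00029) in total lysate, and Paxip1, a subunit of the Kmt2c and Kmt2d complexes, by 0.51 (SE 0.07, edgeR adjusted p = 0.00053). Mllt3, which binds Dot1l, fell by -0.92 (SE 0.08, edgeR adjusted p = 2.6e-05), and Jarid2, which guides Polycomb repressive complex 2, by -0.60 (SE 0.08, edgeR adjusted p = 0.00039). All 4 passed with the same sign in nuclei and in cytoplasm.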

How the data were processed

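Per the submitters' processing notes, the processing named Salmon 0.14.1, DESeq2 and mm10. Counts, as the authors deposited them, are whole numbers for 9239 genes, and the sources used here do not say how these genes were chosen. The deposited RPKM values are, per the file headers, per gene and library; 1 such column without a sample was not used. The log2 ratios between fractions and the iCLIP marks, another kind of value, come from the authors' deposited table.

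Members, gene lists and tests were chosen with earlier results of these data known. Counts were tested with edgeR 4.0.16 (R 4.3.3), after filterByExpr and TMM scaling, in robust quasi-likelihood fits by group. Total lysate, nuclei, cytoplasm, and nuclei with cytoplasm were fitted separately, with Benjamini-Hochberg adjustment over all genes of a fit and calls under 0.05. The SE is the absolute log2 fold change over the root of F, and 95% intervals use the fit's degrees of freedom. Printed CPM come from the total fit and from the joint fit of nuclei with cytoplasm. The lone cytoplasmic pEx5 control library has no replicate, and its group borrows the spread of the rest. Replicates are biological per the labels. The fits were also run on simulated counts with independent replicates and a fixed spread. These libraries share replicate deviations, so that run does not test the fits under such deviations. Gene positions are from GENCODE M21 on mm10.

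Named genes are, per comparison, the 5 highest and 5 lowest called (for control fractions, of all members; where no shift was called, the 1 highest and 1 lowest), 16 members always given, and the 2 highest and 2 lowest called partners. Others named were chosen after their values were seen.

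Replicate numbers come from the labels. Deviations from group means of libraries with the same number correlated at 0.35 to 0.79 in total lysate (15 pairs) and 0.52 to 0.72 in nuclei (15 pairs), so these numbers were taken to pair the samples. They correlated at 0.06 to 0.65 in cytoplasm (10 pairs) and at -0.09 to 0.50 between nuclei and cytoplasm (5 pairs), and were not. The replicate number entered only the fits with the replicate block. Calls, SE and intervals given without the block come from fits that leave the pairing out. Alternatives were DESeq2 1.42.0, its size factors, library totals, no filter, a replicate block, a length and GC trend taken out, 1 fit of all 35 libraries, and leaving out each library.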

Additional observations from a re-analysis of the deposited data

How the results depend on the processing

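The numbers of members called moved by more than 1.5 times under these settings. With the replicate block they were 20 in total lysate, 20 in nuclei, 19 in cytoplasm and 3 for the shift of the knockdown, and 1 in total lysate and 4 in nuclei for the rescue. Of all genes 62.9%, 55.4%, 49.5%, 12.9%, 1.84% and 6.84% were then called, so the background rose too. With the block and the length and GC trend taken out they were 23, 23, 23 and 6, and 1 and 6, beside 66.3%, 59.3%, 57.7%, 20.8%, 1.71% and 8.67% of all genes. For the shift, 4 were called with the trend alone (11.6% of all genes), 2 with library totals (6.68%) and 2 with all 35 libraries in 1 fit (8.52%); the cause was not tested. Leaving out 1 library gave 6 to 12 in total lysate, 7 to 14 in nuclei, 7 to 14 in cytoplasm, 26 to 29 between control fractions, 1 for the shift and 0 to 3 for the cytoplasmic rescue. Between control fractions, taking out the trend without and with the block reversed the log2 ratio of Ehmt2 (-0.153, -0.137), Kdm4b (-0.017, -0.047), Kdm5a (-0.063, -0.046), Kdm5b (-0.070, -0.069) and Kdm2a (-0.058, -0.065). That of Kdm1b went from -0.127 to 0.041 as single libraries were left out, with a positive sign without the nuclear pEx5 control of replicate 1 (0.041) or the nuclear mEx5 control of replicate 2 (0.001). Leaving out the cytoplasmic pEx5 control gives no value for tests that need it. The block changed no other call of the total lysate and nuclear tests in the report than those its counts include. Of 12, 13 and 12 knockdown calls, 5, 5 and 7 were kept whichever library was left out.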

Other observations

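The 39 transcripts took a smaller share of the counts of total lysate than of either fraction. In control libraries they made up 0.274% to 0.302% of counts in total lysate, 0.501% to 0.580% in nuclei and 0.339% to 0.373% in cytoplasm. For 32 of the 39 genes (82.1%) the mean control CPM by library totals was lower in total lysate than in both nuclei and cytoplasm, and for 0 it was higher than in both. Over all 9239 genes 36% were lower than in both and 27.7% higher than in both. Levels are therefore not compared between total lysate and the fractions.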
